A study of Mus musculus with 51 samples.

Results

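The measurements described here concern 7 genes of antibody secretion and of antibody transport across epithelium: Jchain, Mzb1, Tnfrsf17, Derl3, Pigr, Prdm1 and Irf4. They were chosen by symbol, as the probe sets annotated to these names, and each of the 7 was carried by 1 probe set, out of 19505 gene symbols on the array. Plasma cells are the antibody-secreting end stage of the B-cell lineage. In mucosal tissue they join IgA or IgM with the joining chain (Jchain), and the polymeric immunoglobulin receptor (Pigr) on epithelial cells binds the joined antibody on the tissue side and carries it into the lumen. Mzb1 and Derl3 act in the endoplasmic reticulum, where antibody is folded and faulty protein is removed, Tnfrsf17 (BCMA) is a receptor for survival factors of plasma cells, and Prdm1 (Blimp-1) and Irf4 are transcription factors needed to form plasma cells. Irf4 and Prdm1 also act in T cells, dendritic cells and macrophages.

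The 49 arrays compared here came from the lungs of male mice aged 6 to 8 weeks. Every group had received 2 skin applications of 1% MDI in acetone (MDI is methylene diphenyl diisocyanate, a monomer of polyurethane and a known cause of occupational asthma). On days 15, 16, 19 and 20, counted from the first of these, the respiratory tract was exposed, under isoflurane, to MDI-GSH, the reaction products of MDI with glutathione, or to a control in which MDI and GSH had been reacted separately, and the tissue was collected 48 h after the final one. The groups were Balb/c control (n = 3) and MDI (n = 3), C57BL/6 control (n = 6) and MDI (n = 13), C57BL/6 with crofelemer control (n = 5) and MDI (n = 3), and B cell deficient control (n = 9) and MDI (n = 7). Crofelemer, a chloride channel inhibitor, was given through the nose at 4 mg/kg, 4 h before each exposure. The strain without B cells, B6.129S2-Ighmtm1Cgn/J, carries a targeted change of Ighm, the mu heavy chain gene without which B cells do not mature. These mice retain T cells and other leukocytes. No probe set carried any of 21 listed immunoglobulin chain symbols, Ighm included, so antibody chains were not analysed here and the targeted gene could not be checked. No group was left without the skin exposure, so each control is a sensitized lung. The labels number the samples of a group without saying that they are separate mice, so p-values measure the spread between these samples, which may be technical.

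All values are log2 signal as deposited. Defining lung markers lay at the top of the arrays. The alveolar and club cell genes Sftpc, Scgb1a1 and Ager had median ranks at or above percentile 99.66 of their own array in all groups. A percentile is the share of the array's probe sets with a lower signal. Array means fell into separate ranges for Balb/c (7.37 to 7.40), C57BL/6 without crofelemer (7.48 to 7.51), C57BL/6 with crofelemer (7.43 to 7.48) and B cell deficient mice (8.02 to 8.07). A comparison of control with MDI within 1 kind of mouse does not cross these ranges. Comparisons by strain, genotype or crofelemer do, and any difference in processing between those sets of arrays cannot be told apart from the group. In B cell deficient mice control and MDI arrays also differ in their runs of consecutive GEO records, which the labels do not name as batches. All 9 controls lie in the second run with 3 MDI arrays, and 4 MDI arrays lie in the first. Run and exposure are thus partly mixed in that comparison.

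The sequences before the gene starts are shown for 4 members: Pigr, Jchain and Irf4, on whose values the results turn, and Derl3, whose window holds the element of endoplasmic reticulum stress genes and which MDI did not move past the threshold. Each is the 250 bases before the annotated start in RefSeq, build GRCm38.p6, read 5′ to 3′ on the gene's own strand, with motif matches in capitals. The window of Pigr is chr1:130826434-130826683 (plus strand), that of Jchain chr5:88527898-88528147 (minus strand), that of Irf4 chr13:30748983-30749232 (plus strand) and that of Derl3 chr10:75893148-75893397 (plus strand).
Pigr: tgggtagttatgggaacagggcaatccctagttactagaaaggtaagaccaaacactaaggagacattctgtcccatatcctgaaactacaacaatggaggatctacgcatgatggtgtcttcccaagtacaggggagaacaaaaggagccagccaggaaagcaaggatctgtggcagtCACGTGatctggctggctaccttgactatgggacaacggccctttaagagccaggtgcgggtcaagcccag
Jchain: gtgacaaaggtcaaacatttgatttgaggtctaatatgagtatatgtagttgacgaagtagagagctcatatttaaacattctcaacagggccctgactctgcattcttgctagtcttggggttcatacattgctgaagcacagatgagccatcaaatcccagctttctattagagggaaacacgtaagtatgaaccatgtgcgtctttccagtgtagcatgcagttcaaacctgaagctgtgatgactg
Irf4: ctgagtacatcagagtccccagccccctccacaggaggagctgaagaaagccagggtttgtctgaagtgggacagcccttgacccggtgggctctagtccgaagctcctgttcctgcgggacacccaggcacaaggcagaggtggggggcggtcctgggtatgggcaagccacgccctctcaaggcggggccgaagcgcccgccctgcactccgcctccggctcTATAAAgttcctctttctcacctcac
Derl3: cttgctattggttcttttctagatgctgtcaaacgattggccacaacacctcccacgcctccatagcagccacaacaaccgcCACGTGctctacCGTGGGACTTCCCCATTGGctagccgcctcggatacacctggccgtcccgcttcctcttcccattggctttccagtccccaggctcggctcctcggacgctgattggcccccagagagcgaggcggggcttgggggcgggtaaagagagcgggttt
The capitals in Pigr are the palindromic E-box CACGTG, 71 to 66 bases before the start, a motif present in 6.02% of 32851 windows of this length. In Irf4 they are a TATA box (TATAAA) at 26 to 21 bases, found in 12.4% of windows. Derl3 holds CACGTG at 168 to 163 bases and, on the opposite strand, the endoplasmic reticulum stress element (CCAAT and CCACG with 9 bases between) at 156 to 138 bases, which 0.113% of windows hold. Jchain holds no match to these 3 motifs nor to the other 4 searched on both strands (TTC and GAA 4 bases apart, GAAA and GAAA 2 bases apart, ATGCAAAT, and GGG and TTTCC 2 bases apart), which 5.85%, 2.98%, 1.60% and 1.41% of windows hold. The searched motifs do not overlap one another in the windows shown.

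Pigr, the transporter, rose after MDI in all 4 kinds of mouse, B cell deficient mice included, and no control array overlapped an MDI array in any of them. In Balb/c mice the controls read 11.58, 10.81 and 10.77 and the MDI arrays 14.12, 13.99 and 13.36. In C57BL/6 mice the controls ran from 9.77 to 11.40 (median 10.155) and the MDI arrays from 11.83 to 13.86 (median 12.95). Every MDI array of both strains thus lay above every control of its strain.

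Without B cells the Pigr controls ran from 10.82 to 12.00 (median 11.37) and the MDI arrays from 13.19 to 14.54 (median 13.87). With crofelemer the controls read 9.23, 9.61, 9.33, 8.79 and 9.60 and the MDI arrays 10.76, 10.59 and 11.14. The crofelemer-treated MDI arrays lay below the lowest MDI array of each other kind of mouse.

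The log2 fold change of Pigr was 2.77 ± 0.37 (SE; 6.82-fold) in Balb/c (limma, adjusted p = 1.44e-06), 2.49 ± 0.22 (5.61-fold) in C57BL/6 (adjusted p = 4.15e-12) and 2.38 ± 0.23 (5.19-fold) in B cell deficient mice (adjusted p = 1.84e-11). Over all probe sets 0.302%, 14.5% and 36.9% were called in these comparisons at an adjusted p under 0.05, 0.261%, 5.30% and 16.2% as higher, and the groups did not overlap for 14.3%, 1.08% and 7.03%. Centring the arrays on their medians turned the split in C57BL/6 from 1176 higher and 2049 lower to 1573 and 1609. The members called were 1 of 7 in Balb/c (Pigr), 3 in C57BL/6 (Pigr, Irf4, Mzb1) and 2 in B cell deficient mice (Pigr, Irf4). The effect in B cell deficient mice differed from that in C57BL/6 by -0.11 ± 0.32 (95% interval -0.75 to 0.53, adjusted p = 0.836) and the effect in Balb/c by 0.28 ± 0.43 (-0.58 to 1.14, adjusted p = 0.929). These intervals include 0 and leave room for differences of more than 0.5 on the log2 scale. Within the runs of consecutive GEO records that hold both groups, which the labels do not name as batches, the change was 2.36 in C57BL/6 and 2.42 in B cell deficient mice.

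With crofelemer the rise of Pigr was 1.52 ± 0.33 (2.86-fold) and only just passed, at an adjusted p of 0.0498, against 0.0540% of probe sets called, 0.0360% as higher, and 2.96% without overlap. Pigr was the 1 member of 7 called there. The call was lost with dim probe sets filtered out (0.0736), without an intensity trend (0.0583), with array weights (0.247) and with the replicate block (0.0694). It was also lost when any 1 of 7 of the 8 arrays was left out, each of the MDI samples 1, 2 and 3 and the control samples 1, 3, 4 and 5, with values of 1.36 to 1.64 and adjusted p from 0.0542 to 0.214 for those Pigr fits. The effect of MDI on Pigr with crofelemer differed from that without it by -0.97 ± 0.40, which did not pass (adjusted p = 0.294, 95% interval -1.77 to -0.17).

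Pigr is made by secretory epithelium, and goblet cell genes moved in the same comparisons. Of 14 goblet cell markers, 8 rose in Balb/c, 9 in C57BL/6, 11 in mice lacking B cells and 2 under crofelemer, with median log2 changes of 3.03, 1.70, 1.90 and 0.94 against -0.01, 0.01, -0.06 and 0.00 over all probe sets. Among them the goblet cell protein genes Clca1 and Muc5ac rose by 12.52 ± 1.09 and 5.89 ± 0.64 in Balb/c and by 8.12 ± 0.66 and 5.41 ± 0.39 in C57BL/6. Of all probe sets, 0.261% in Balb/c, 5.30% in C57BL/6, 16.2% in mice lacking B cells and 0.0360% under crofelemer were called as higher. The mean signal of the 14 markers ran from 6.72 to 8.68 in C57BL/6 controls and from 9.35 to 10.69 after MDI. Without B cells it ran from 7.31 to 8.61 and from 10.08 to 11.32. Of 15 general epithelial markers, none rose and 7 fell in C57BL/6, 1 rose and 4 fell in B cell deficient mice, and none was called in the other 2 kinds. In either direction 14.5% of all probe sets were called in C57BL/6 and 36.9% in B cell deficient mice. The part of goblet cell number in the Pigr values was not tested. In whole lung, fewer cells of a type and less RNA per cell cannot be told apart.

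**Figure D1:**
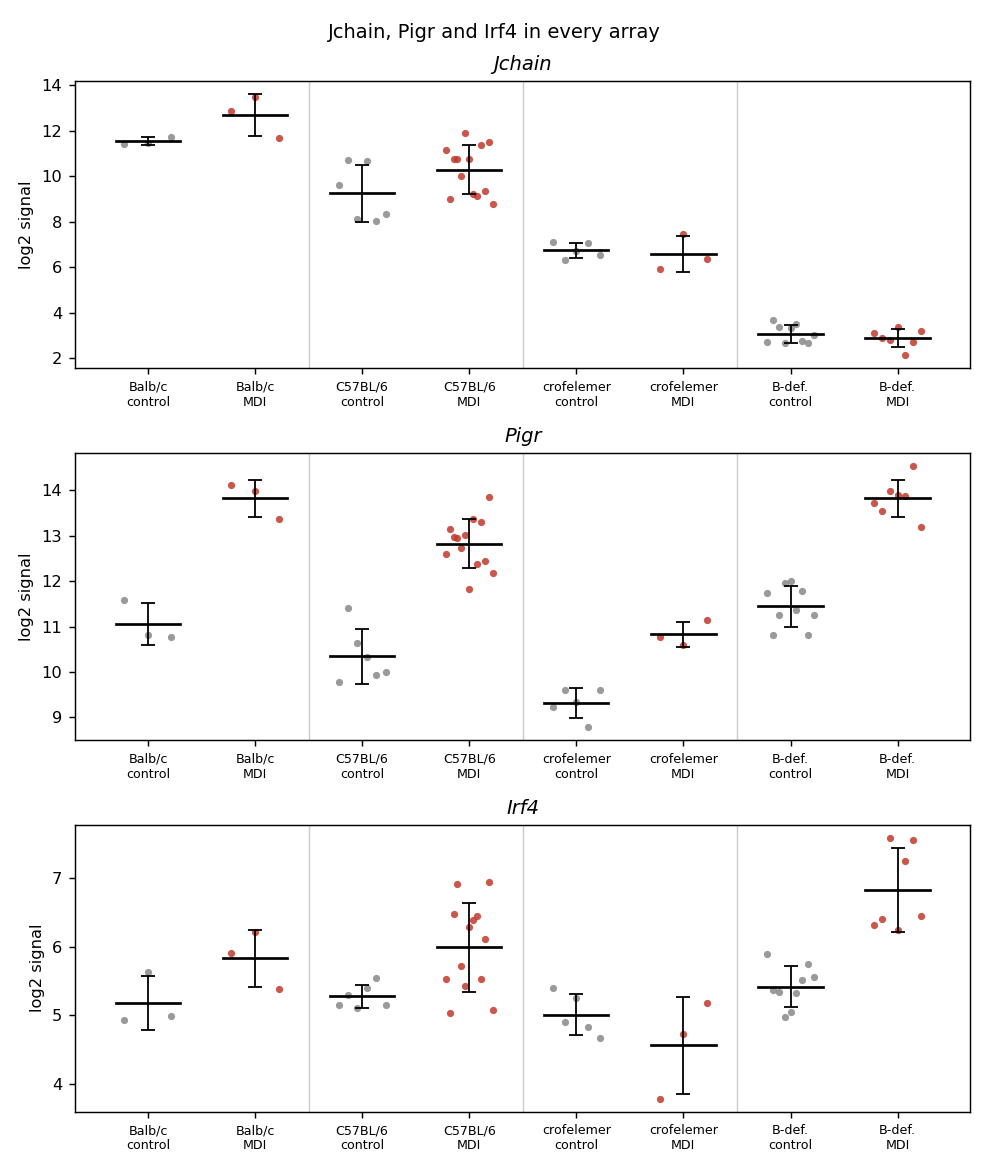
Log2 signal of Jchain, Pigr and Irf4 (y axes) in the 8 groups (x axis, B-def. for B cell deficient mice). Points are arrays, grey for control and red for MDI, long bars are means and whiskers 1 SD; Pigr is higher after MDI in all 4 kinds of mouse without overlap, while Jchain is lowest in B cell deficient mice, between 2.13 and 3.67.

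Jchain, the joining chain of secreted IgA and IgM, separated the kinds of mouse more than the exposures. Balb/c controls read 11.40, 11.47 and 11.73 and Balb/c MDI arrays 12.87, 13.49 and 11.66. C57BL/6 controls ran from 8.03 to 10.70 (median 8.97) and C57BL/6 MDI arrays from 8.78 to 11.89 (median 10.74). The MDI and control arrays overlapped in both strains.

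With crofelemer the Jchain controls read 7.10, 6.33, 6.70, 7.04 and 6.55 and the MDI arrays 5.90, 7.47 and 6.35. In B cell deficient mice the controls ran from 2.64 to 3.67 (median 3.01) and the MDI arrays from 2.13 to 3.37 (median 2.87). The order of the group means was thus Balb/c, C57BL/6, C57BL/6 with crofelemer, B cell deficient. Between neighbours in that order the ranges overlapped for Balb/c controls and C57BL/6 MDI arrays, but not between C57BL/6 controls and crofelemer-treated controls, nor between crofelemer-treated and B cell deficient arrays.

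MDI moved Jchain by 1.14 ± 0.62 in Balb/c (adjusted p = 0.967) and by 1.04 ± 0.37 in C57BL/6 (2.06-fold, adjusted p = 0.0505), neither past the threshold. In C57BL/6 the value lay at the edge of the call. It passed with arrays centred on their medians (adjusted p = 0.0411), with quantile normalization (0.0357) and with dim probe sets filtered out (0.0356). It also passed without control sample 2 (1.33, adjusted p = 0.0159) or 4 (1.32, 0.018), or without MDI sample 2 (1.15, 0.0268), 8 (1.13, 0.0363), 9 (1.14, 0.0315), 11 (1.12, 0.0365) or 14 (1.17, 0.0234). Within the first run of consecutive records Jchain changed by 0.64 (adjusted p = 0.492) and with that run as a term by 0.63 (0.412). The controls of the last run read 8.03 and 8.35. In B cell deficient mice the change was -0.19 ± 0.38 (adjusted p = 0.727) and with crofelemer -0.17 ± 0.55 (0.974). The effect in B cell deficient mice differed from that in C57BL/6 by -1.23 ± 0.53, with an adjusted p of 0.0894 that dropped to 0.0424 without control sample 2 (-1.52) and to 0.0429 without control sample 4 (-1.51). Of the 3 tests of a difference in MDI effect between kinds of mouse, none called any of the 7 members. Over all probe sets they called 0.0270% for Balb/c, 20.3% for B cell deficient mice and 0.423% for crofelemer.

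Rank within the array, which a monotone rescaling does not move, gave the same order for Jchain. The median percentile was 85.6 in Balb/c controls, 68.1 in C57BL/6 controls, 48.9 in crofelemer-treated controls and 0.0225 in B cell deficient controls. After MDI it was 92.6, 82.0, 45.2 and 0.00901. In B cell deficient lung Jchain was thus among the lowest signals of the array, at most at percentile 0.910. Detection calls were not used here, so the difference of -6.17 ± 0.40 between B cell deficient and C57BL/6 controls (adjusted p = 2.88e-18) sets a bottom-of-range signal against a measured one.

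**Figure D2:**
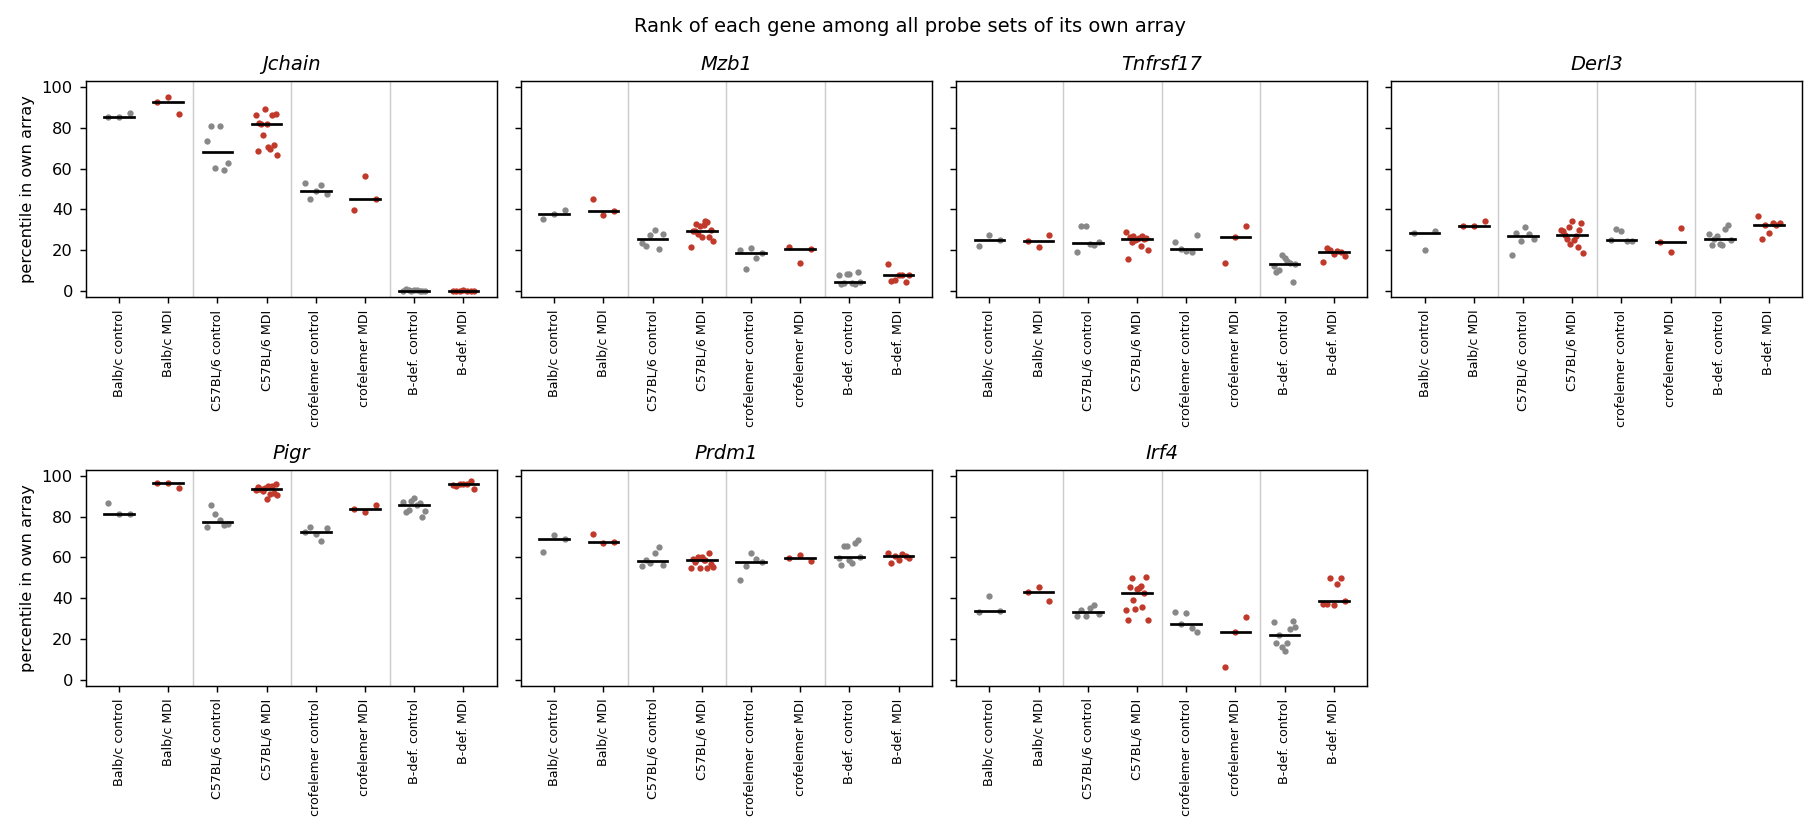
Percentile of each of the 7 genes among all probe sets of its own array (y axis) in the 8 groups (x axis), with 1 point per array and a bar at the group median. Jchain runs from a median of 92.6 in Balb/c MDI arrays to 0.00901 in B cell deficient MDI arrays, and Pigr is at or above percentile 93.4 in every B cell deficient MDI array.

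The other plasma cell genes gave dim signals with small changes. Mzb1, a chaperone of antibody assembly, ran from 4.37 to 4.93 (median 4.735) in C57BL/6 controls and from 4.73 to 5.37 (median 5.01) after MDI. This rise of 0.35 ± 0.12 passed at an adjusted p of 0.0448. It did not pass with quantile normalization (0.116), with only the 2 groups fitted (0.0654), with the record run as a term (0.15), within the first run (0.155) or with the replicate block (0.199). It was also lost without control sample 1, 2 or 5 or without MDI sample 3, 4, 6, 8, 9, 10 or 12, where Mzb1 changed by 0.29 to 0.36 with adjusted p from 0.0513 to 0.142. The Mzb1 change in B cell deficient mice was -0.01 ± 0.13 (adjusted p = 0.959), and in Balb/c it was 0.35 ± 0.20 (0.999).

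Derl3, which helps remove misfolded protein from the endoplasmic reticulum, was not called after MDI in any kind of mouse. Its largest change was in Balb/c, where controls read 4.56, 4.04 and 4.66 and MDI arrays 4.77, 4.92 and 4.97. These do not overlap, but the change of 0.47 ± 0.21 had an adjusted p of 0.729. Tnfrsf17, the survival receptor, had group means from 4.33 to 5.03 over all 8 groups, with MDI changes of -0.02 ± 0.22 in Balb/c, 0.00 ± 0.13 in C57BL/6, 0.23 ± 0.14 without B cells and 0.18 ± 0.20 under crofelemer (adjusted p from 0.179 to 0.999). Under quantile normalization Derl3 (0.38, adjusted p = 0.0268) and Tnfrsf17 (0.36, 0.025) were called in B cell deficient mice. In B cell deficient controls Derl3 ran from 5.50 to 6.01 and Tnfrsf17 from 4.10 to 5.19, against 4.29 to 5.07 and 4.38 to 5.17 in C57BL/6 controls.

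**Figure D3:**
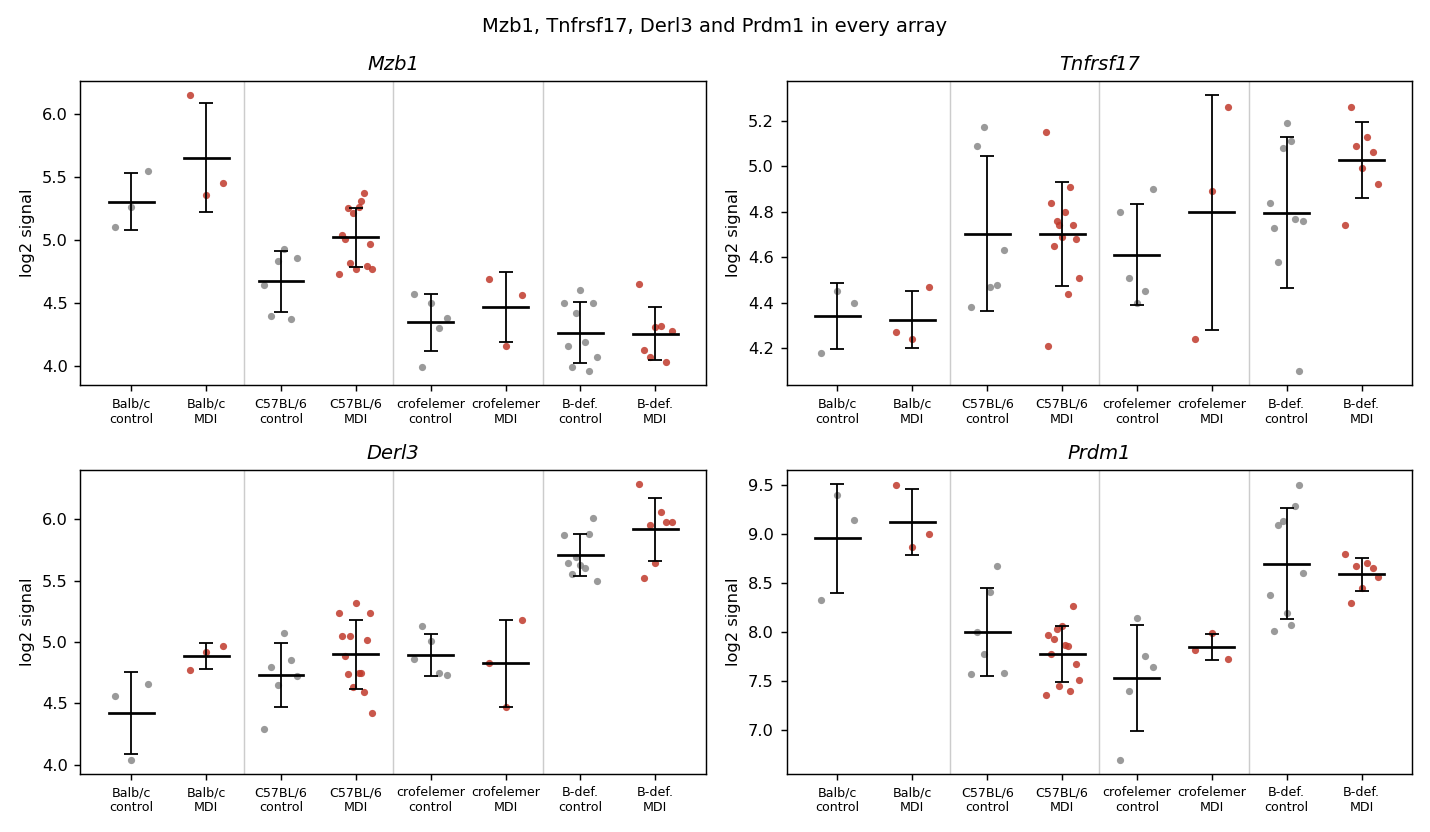
Log2 signal of Mzb1, Tnfrsf17, Derl3 and Prdm1 (y axes, each with its own range that does not start at 0) in the 8 groups (x axis). Points are arrays, grey for control and red for MDI, long bars are means and whiskers 1 SD; the group means of Tnfrsf17 stay between 4.33 and 5.03, and Derl3 is at or above 5.50 in every B cell deficient control.

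Of the 2 transcription factors, Irf4 rose after MDI in C57BL/6 and in B cell deficient mice and was not called in Balb/c or with crofelemer, and Prdm1 was called in none of the 4. In C57BL/6 mice Irf4 controls ran from 5.11 to 5.54 (median 5.22) and MDI arrays from 5.03 to 6.94 (median 6.11). Without B cells the Irf4 controls ran from 4.97 to 5.89 (median 5.36) and the MDI arrays from 6.24 to 7.59 (median 6.44). The groups overlapped in C57BL/6, where the MDI arrays spread widely (SD 0.65 against 0.17 in controls), and did not overlap in B cell deficient mice.

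In Balb/c mice Irf4 read 4.93, 5.63 and 4.98 in controls and 5.90, 6.21 and 5.38 after MDI. With crofelemer it read 5.39, 4.90, 5.25, 4.82 and 4.67 in controls and 3.78, 4.72 and 5.17 after MDI. The Balb/c means lay higher after MDI and the crofelemer-treated means lower, with overlap in both.

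The change of Irf4 was 1.41 ± 0.24 in B cell deficient mice (2.66-fold, adjusted p = 7.05e-06) and 1.67 (3.11e-05) within the second run of records, which holds all 9 of the controls and 3 MDI arrays. In C57BL/6 it was 0.72 ± 0.23 (1.65-fold, adjusted p = 0.0281). That call was lost with quantile normalization (0.0635), with only the 2 groups fitted (0.0541), with the record run as a term (0.128), within the first run (0.83, 0.0654) and with the replicate block (0.149). It was also lost without control sample 1 (0.69, 0.0593), 3 (0.69, 0.0605) or 6 (0.69, 0.0529) or MDI sample 12 (0.64, 0.0508). Irf4 changed by 0.65 ± 0.38 in Balb/c (adjusted p = 0.999) and by -0.45 ± 0.34 with crofelemer (0.801). The effect of MDI on Irf4 in Balb/c differed from that in C57BL/6 by -0.07 ± 0.45 (adjusted p = 0.989). The effect in B cell deficient mice exceeded that in C57BL/6 by 0.70 ± 0.33, which did not pass (adjusted p = 0.122), and the effect with crofelemer differed from that without it by -1.17 ± 0.41 (0.215). Prdm1 changed by 0.17 ± 0.32 in Balb/c, -0.22 ± 0.19 in C57BL/6, -0.11 ± 0.20 without B cells and 0.31 ± 0.28 under crofelemer, with adjusted p from 0.497 to 0.999.

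Markers of other cells that use Irf4 moved beside it. Of 13 conventional dendritic cell markers, 8 rose in C57BL/6 and 11 in B cell deficient mice, and of 12 T cell markers 7 and 10 rose. Of 12 markers of alternatively activated macrophages, 9 and 10 rose. Over all probe sets 5.30% were called as higher in C57BL/6 and 16.2% in B cell deficient mice. In Balb/c 4 of those macrophage markers rose and no dendritic or T cell marker was called, and with crofelemer no marker of the 3 lists was called. The median changes of the dendritic and T cell markers were 0.79 and 0.52 in Balb/c, against 0.64 and 0.49 in C57BL/6. In Balb/c, with 3 arrays per group, 0.302% of all probe sets were called, and with crofelemer 0.0540%. The lectin gene Mgl2 of dendritic cells and macrophages rose by 2.28 ± 0.25 in C57BL/6 and 2.19 ± 0.26 in B cell deficient mice. The T cell costimulator Icos rose by 1.75 ± 0.21 and 1.80 ± 0.22, and Retnla, on the macrophage list, by 5.63 ± 0.39 and 5.51 ± 0.40. The mean signal of the T cell markers ran from 7.29 to 7.73 in B cell deficient controls and from 8.28 to 8.81 after MDI, and that of the dendritic cell markers from 8.88 to 9.68 and from 10.15 to 10.57. The part of these cells in the Irf4 values was not tested.

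Among 15 partners and opponents of Prdm1 and Irf4, 3 rose and 1 fell after MDI in C57BL/6, and 8 rose and none fell in B cell deficient mice, with medians of 0.09 and 0.47. The shares of all probe sets called were 14.5% and 36.9%, with 5.30% and 16.2% as higher. None of the 15 was called in Balb/c or with crofelemer. Id2, an inhibitor of DNA-binding factors, rose by 0.73 ± 0.16 and Klf2, a factor of quiescent lymphocytes, fell by 1.27 ± 0.31 in C57BL/6 (adjusted p = 0.00098 and 0.00353). In B cell deficient mice the lymphoid factor Ikzf3 rose by 2.04 ± 0.17 (adjusted p = 2.93e-13) and Spi1, a myeloid and B cell factor that binds DNA with Irf4, by 1.05 ± 0.15 (7.21e-07). The MDI effect on Ikzf3 was 1.59 ± 0.24 larger in B cell deficient than in C57BL/6 mice (adjusted p = 4.32e-05). That test called 20.3% of all probe sets, and the B cell deficient controls share no run of records with C57BL/6 arrays.

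**Figure D4:**
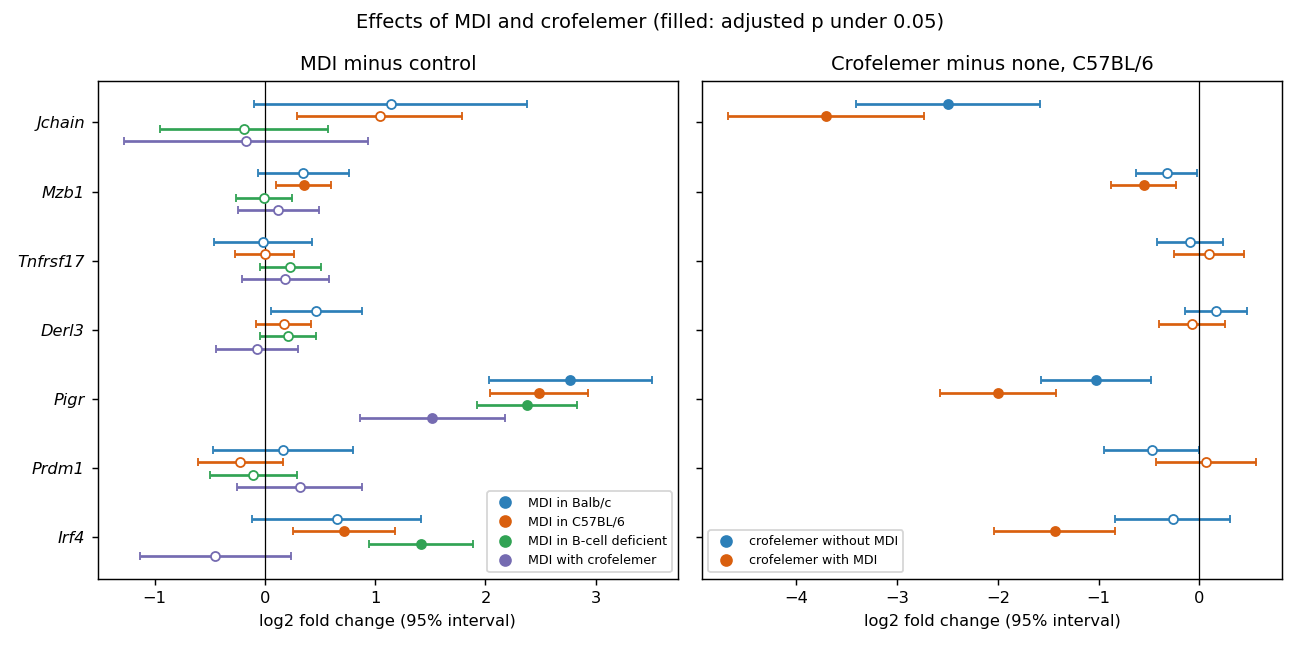
Log2 fold change with its 95% interval (x axis) for the 7 genes (y axis), for MDI minus control in 4 kinds of mouse (left) and for crofelemer minus none in C57BL/6 mice without and with MDI (right). Filled points passed an adjusted p under 0.05; Pigr lies between 1.52 and 2.77 on the left, and Jchain at -2.49 and -3.71 on the right.

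Crofelemer-treated C57BL/6 mice had less Jchain and Pigr than untreated ones, with and without MDI. Without MDI, the log2 difference (crofelemer minus none) was -2.49 ± 0.46 for Jchain (5.63-fold lower, adjusted p = 1.43e-05) and -1.03 ± 0.27 for Pigr (2.04-fold lower, adjusted p = 0.00196). With MDI it was -3.71 ± 0.48 for Jchain (13.0-fold lower, adjusted p = 1.71e-08) and -2.00 ± 0.29 for Pigr (adjusted p = 1.72e-07). Irf4 differed by -1.43 ± 0.30 with MDI (2.70-fold lower, adjusted p = 0.000142) and Mzb1 by -0.55 ± 0.16 (1.47-fold lower, adjusted p = 0.00546). The Jchain and Pigr groups did not overlap in either comparison.

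The members called were 2 of 7 without MDI and 4 of 7 with it, all lower, where 39.0% and 32.6% of all probe sets were called, 21.4% and 17.5% as lower, and 20.3% and 13.9% had groups that did not overlap. Deviations of same-numbered samples had correlations of 0.167, 0.166 and 0.105 in the comparison with MDI, which were not tested. With the replicate number as a block Mzb1 no longer passed there (-0.46, adjusted p = 0.285). Mzb1 also did not pass without crofelemer MDI sample 2 (-0.40, adjusted p = 0.104). Without MDI, Mzb1 was called when control sample 5 was left out (-0.38, adjusted p = 0.048) and under quantile normalization (-0.46, 0.00922), and Prdm1 without crofelemer control sample 3 (-0.63, 0.0374). Centring the arrays on their medians moved the median of all probe sets from 0.03 to 0.19 without MDI and turned the split of called probe sets from 3916 higher and 4753 lower to 6879 and 3730. With MDI it turned 3336 higher and 3896 lower into 4867 and 3332. Under it the differences were -2.34 without MDI and -3.61 with it for Jchain, and -0.88 and -1.91 for Pigr.

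B cell markers fell with Jchain in the crofelemer comparisons. Of 16 B cell markers, 16 were lower without MDI (median -1.31, against 0.03 over all probe sets) and 14 with MDI (median -1.23, against 0.04). Of all probe sets, 21.4% and 17.5% were called lower. The B cell receptor component genes Cd79a and Cd79b differed by -2.80 ± 0.27 and -2.23 ± 0.24 without MDI. The mean of Cd79a was 11.08 in C57BL/6 controls, 8.29 in crofelemer-treated controls and 5.26 in B cell deficient controls. The mean signal of the 16 markers ran from 7.98 to 8.75 in C57BL/6 controls, 6.82 to 6.97 with crofelemer and 6.36 to 6.49 in B cell deficient controls. After MDI it ran from 7.69 to 8.86, 6.59 to 7.16 and 6.59 to 7.20. Of 12 plasmacytoid dendritic cell markers, 7 were lower and 2 higher without MDI, and 5 were lower and none higher with it. In either direction 39.0% and 32.6% of all probe sets were called. After MDI in mice lacking B cells, 7 of the 16 B cell markers rose and 2 fell, where 36.9% of all probe sets were called. Bank1, an adaptor of B cell receptor signalling, rose by 2.16 ± 0.30 there and Cd37, a tetraspanin of leukocytes, by 1.69 ± 0.27 (adjusted p = 2.52e-07 and 2.7e-06), while Cd79a had means of 5.26 and 4.94. The mean signal of the list thus includes genes that rose where B cells are lacking. The part of B cell number in the Jchain values was not tested.

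Beside Pigr, 7 of 14 goblet cell markers were lower with crofelemer and MDI and 1 was higher (median -0.61). Without MDI, where Pigr was also lower, 3 were lower and 2 higher (median -0.02), beside 39.0% of all probe sets called. In the comparison with MDI, Muc5ac, a gel-forming mucin, differed by -4.18 ± 0.50 and Fcgbp, a mucus protein, by -3.16 ± 0.37. Beside Irf4 with MDI, 7 of 13 dendritic cell markers were lower and 1 higher, 3 of 12 T cell markers lower and 1 higher, and 8 of 12 macrophage markers lower and 2 higher, where 17.5% of all probe sets were called lower and 32.6% in either direction. The T cell receptor component Cd3g differed by -2.26 ± 0.33 and the macrophage product Chil3 by -1.90 ± 0.29. Their part in the values of Pigr and Irf4 was not tested.

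**Figure D5:**
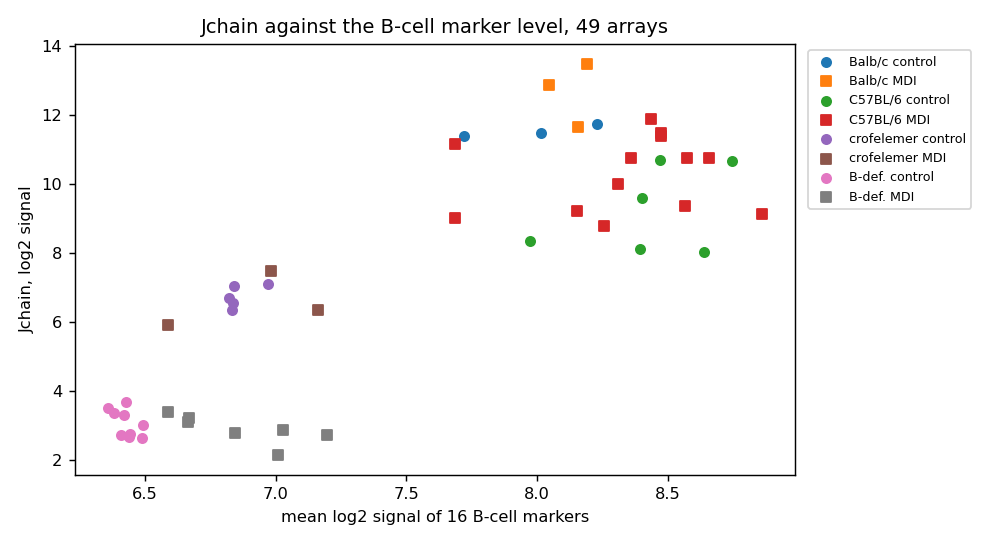
Jchain log2 signal (y axis) against the mean log2 signal of 16 B cell markers (x axis), 1 point per array, 49 arrays in 8 groups. Balb/c arrays have higher Jchain than C57BL/6 controls, from 11.40, at marker levels of 7.72 to 8.23, while B cell deficient arrays lie at or below 3.67 and crofelemer-treated arrays between 5.90 and 7.47.

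The 28 measured genes of plasma cell identity and secretion did not move as 1 group. After MDI, 5 rose and 3 fell in C57BL/6, 9 rose and 4 fell in B cell deficient mice, and none was called in Balb/c or with crofelemer. Of all probe sets, 14.5% were called after MDI in C57BL/6 and 36.9% in B cell deficient mice. Slamf7, a surface receptor of plasma cells that other leukocytes also carry, rose by 1.44 ± 0.24 in C57BL/6 and by 1.82 ± 0.24 in B cell deficient mice. Sec11c, a signal peptidase subunit, rose by 0.81 ± 0.18 and 1.16 ± 0.18. Xbp1, the secretory transcription factor that airway epithelium also uses, fell by 0.45 ± 0.16 in C57BL/6 (adjusted p = 0.0447) and was not called in B cell deficient mice (-0.13 ± 0.16). With crofelemer and MDI, 7 of the 28 were higher and 10 lower, where 32.6% of all probe sets were called, and without MDI 5 were higher and 6 lower, where 39.0% were. In the comparison with MDI, Sdc1 (CD138), which epithelium also carries, was 1.76 ± 0.15 higher, and the chaperone Hsp90b1 differed by -1.91 ± 0.17. Pou2af1, the B cell coactivator, differed by -2.38 ± 0.19 between B cell deficient and C57BL/6 controls (adjusted p = 3.39e-15).

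Of 22 measured genes of plasma cell survival and homing, 3 rose and 1 fell after MDI in C57BL/6 and 9 rose and 2 fell in B cell deficient mice. In these comparisons 14.5% and 36.9% of all probe sets were called, 5.30% and 16.2% as higher. Il5ra, the interleukin-5 receptor chain, rose by 1.20 ± 0.23 in C57BL/6 and by 2.55 ± 0.23 in B cell deficient mice. That effect was 1.35 ± 0.32 larger in B cell deficient mice (adjusted p = 0.00298), in a test that called 20.3% of all probe sets. The B cell deficient controls share no run of records with C57BL/6 arrays. With crofelemer the survival factor Tnfsf13b (BAFF) differed by -1.54 ± 0.21 without MDI and -1.63 ± 0.23 with it, and its receptor Tnfrsf13c by -1.47 ± 0.27 and -1.02 ± 0.28. The list held 5 lower and 2 higher genes without MDI and 7 lower and 3 higher with it, beside 21.4% and 17.5% of all probe sets called lower and 39.0% and 32.6% called in all. None of the 22 was called after MDI in Balb/c or with crofelemer.

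Of 20 measured genes of immunoglobulin transport and its regulators, 2 rose and 1 fell after MDI in C57BL/6, and 8 rose and none fell in B cell deficient mice. Of all probe sets, 14.5% and 36.9% were called in these comparisons, 5.30% and 16.2% as higher. None of the 20 was called in Balb/c or with crofelemer. Il4, a cytokine that raises Pigr in epithelial cells, rose by 1.20 ± 0.22 in C57BL/6 (adjusted p = 0.000125). In B cell deficient mice it rose by 2.67 ± 0.23 (5e-13), a difference of 1.46 ± 0.32 (0.00141). That test of a difference called 20.3% of all probe sets. The B cell deficient controls lie in a run of records that holds no C57BL/6 array. In Balb/c Il4 changed by 0.12 ± 0.37 (0.999), and with crofelemer by 0.30 ± 0.33 (0.889). The part of Il4 in the Pigr values was not tested. Fcamr, a receptor for IgA and IgM, rose by 0.50 ± 0.17 in C57BL/6 and by 0.63 ± 0.18 in B cell deficient mice. In Balb/c Fcamr changed by 0.91 ± 0.28, which was not called (adjusted p = 0.241). Fcmr, the IgM receptor of B cells, differed by -1.53 ± 0.20 with crofelemer without MDI, by -1.59 ± 0.21 with MDI, and by -1.81 ± 0.17 between B cell deficient and C57BL/6 controls.

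Between B cell deficient and C57BL/6 mice Jchain and Mzb1 were lower and several other members higher, in a comparison in which most probe sets were called. The members called were 5 of 7 in controls (3 higher, 2 lower) and 7 of 7 after MDI (5 higher, 2 lower), where 71.3% and 77.4% of all probe sets were called, 64.4% and 75.7% as higher and 6.82% and 1.65% as lower, and the median of all probe sets was 0.54 and 0.53. In controls Derl3 was 0.98 ± 0.13, Pigr 1.10 ± 0.24 and Prdm1 0.69 ± 0.20 higher, each beside that median. Centring the arrays turned the split of called probe sets from 14308 higher and 1514 lower to 6286 and 6696 in controls, and from 16813 and 367 to 2809 and 6700 after MDI. With arrays centred, Prdm1 no longer passed in controls (0.14, adjusted p = 0.574), and after MDI Pigr (0.34, 0.184), Prdm1 (0.16, 0.485) and Irf4 (0.19, 0.504) did not pass. Under quantile normalization Derl3 was 0.02 in controls (0.926). Tnfrsf17, 0.33 ± 0.13 higher after MDI, turned to -0.32 with arrays centred and to -0.36 under quantile normalization. Mzb1 differed by -0.41 ± 0.13 in controls (adjusted p = 0.00536) and by -0.77 ± 0.12 after MDI (1.39e-07), and Jchain by -7.40 ± 0.35 after MDI (4.56e-23), against the direction of the shift. The groups did not overlap for Jchain and Derl3 in controls, nor for Jchain, Mzb1, Derl3 and Prdm1 after MDI, against 42.2% and 23.0% of all probe sets. Of the 16 B cell markers 15 were lower in controls. All the B cell deficient controls lie in a run of records that holds no C57BL/6 array, so the run and the genotype cannot be told apart in controls.

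Balb/c controls had more Jchain than C57BL/6 controls, by 2.30 ± 0.53 (4.91-fold, adjusted p = 0.000779), more Mzb1, by 0.63 ± 0.18 (0.00474), and more Prdm1, by 0.95 ± 0.27 (0.00627). These 3 of 7 members compare with 32.0% of probe sets called and 10.5% called as higher. Centring turned 2328 higher and 4774 lower calls into 4871 and 2187. The Jchain and Mzb1 groups did not overlap, as for 32.8% of probe sets. B cell markers went the other way: 6 of 16 were lower in Balb/c and none higher, beside 4774 of all 22206 probe sets called lower. Their median was -0.44, against -0.13 over all probe sets, and Cd79a differed by -1.48 ± 0.32. Without Balb/c control sample 3 Mzb1 did not pass (0.51, adjusted p = 0.0585), and without sample 2 Prdm1 did not (0.73, 0.0853). Pigr passed without C57BL/6 control sample 2 (0.92, adjusted p = 0.0191) and with arrays centred (0.95, 0.0169).

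Within groups the 7 genes varied largely apart from one another. Over the deviations from the group means in 49 arrays, none of the 21 pairs had a Pearson correlation with an adjusted permutation p under 0.05. The largest was Tnfrsf17 with Pigr (r = 0.36, Spearman rho = 0.35, adjusted permutation p = 0.216 and 0.396, r = 0.33 without the 2 arrays farthest from the median, and r = 0.19 within the first run of records), and Jchain with Pigr had r = 0.20. The genes whose deviations were most like those of Pigr were Nppa (r = 0.67), Agr2 (0.67) and Bpifb1 (0.66), of which the last 2 are on the goblet cell list. Those most like Jchain were Sil1 (0.54), Gm1979 (0.52) and Vmn1r9 (0.49). These are descriptions over 49 arrays that share the tissue and the groups' processing.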

How the data were processed

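Whole-lung RNA was hybridised to 51 Affymetrix mouse arrays, of which 49 fell into 8 labelled groups. The authors deposited log2 signal for 22206 probe sets, made with Transcriptome Analysis Console per the submitters' processing notes. Software version: not given in the sources used here, as is true of the normalization, while the log base was read from the range of the values (1.86 to 20.91). A single gene symbol belonged to 19572 of them and none to 2634.

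From these values 1 model of 8 group means (limma 3.58.1 in R 4.3.3, intensity trend, 41 residual degrees of freedom) gave 12 comparisons, 2-sided, with Benjamini-Hochberg adjustment over all 22206 probe sets. A gene was called at an adjusted p under 0.05. Intervals are 95%. Figures were drawn with matplotlib 3.10.9. With known changes put into 200 of 22206 simulated probe sets, the fit was checked: for MDI in C57BL/6 it recovered 96% of 2-fold and 100% of 4-fold changes, and for MDI in Balb/c 64% and 98%. The simulated noise was normal and independent, with 1 SD per probe set. It held no record runs and no spread that differs between groups, so the check does not cover those. The number of arrays limits the precision.

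The members and lists were chosen with earlier results of these data known. Named genes are all members, up to 4 genes of each list with the smallest adjusted p in the comparison described, Xbp1, and the 3 genes most like Jchain and Pigr. Replicate numbers are shared between groups. Same-numbered samples had a positive correlation of deviations for every shared number only for crofelemer with MDI (0.167, 0.166 and 0.105). For MDI in C57BL/6 these correlations ran from -0.222 to 0.184, and none was tested. The main model pairs no samples, and the numbers entered only as the replicate block. Alternatives were centring, quantile normalization, a filter on dim probe sets, no trend, array weights, only the groups compared, record runs, the replicate block, and leaving out each array. A further alternative, not planned beforehand, left out the 4 B cell deficient controls whose signals had an SD under 3 (2.85 to 2.96). Its values are counted with those of the other alternatives. No arrays were duplicates. The 2 arrays whose labels disagree on crofelemer entered no comparison.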

Additional observations from a re-analysis of the deposited data

Results flagged for a closer look

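The 2 arrays whose titles disagree with their other labels on crofelemer entered no comparison. Both titles name MDI exposure, and signals on them lay above the highest C57BL/6 control, taken with and without crofelemer. On the array with title number 4, Pigr read 11.67, against 11.40 for that control. On the array with title number 13, Jchain read 12.10 (highest control 10.70), Mzb1 5.54 (4.93), Pigr 13.25 (11.40) and Irf4 6.41 (5.54). Derl3 read 5.27 there (5.13). The C57BL/6 MDI arrays without crofelemer ran from 8.78 to 11.89 for Jchain, 4.73 to 5.37 for Mzb1 and 4.42 to 5.32 for Derl3. For Pigr they ran from 11.83 to 13.86 and for Irf4 from 5.03 to 6.94. With crofelemer the MDI arrays ran from 10.59 to 11.14 for Pigr. No array stood apart from its own group for any of the 7 genes in 28 checks of groups of 4 to 10 arrays.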

How the results depend on the processing

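Over 2101 member values under an alternative, 2026 kept their side of the threshold, 51 lost the call, 19 gained it and 5 reversed. Of the 2026, 88 changed sign while called under neither setting. The reversals were between B cell deficient and C57BL/6 mice: Tnfrsf17 in controls (-0.46 with arrays centred, -0.78 under quantile normalization), Irf4 in controls (-0.77 under quantile normalization) and Tnfrsf17 after MDI (-0.32 and -0.36). The cause was not tested. Of the 7 members, MDI in C57BL/6 called 1 in place of 3 with only the groups compared, with the record run as a term, within the first run and with the replicate block. MDI in B cell deficient mice called 4 under quantile normalization and 1 with dim probe sets filtered out. MDI with crofelemer called 0 with the dim filter, no trend, array weights and the replicate block. Crofelemer with MDI called 2 with the dim filter. B cell deficient against C57BL/6 mice called 3 with the dim filter in controls, and after MDI 4 with arrays centred, 4 under quantile normalization and 3 with the dim filter. That filter removes Mzb1, Tnfrsf17, Derl3 and Irf4. Leaving out 1 array gave 1 to 4 calls for MDI in C57BL/6, 0 to 1 for MDI with crofelemer, 2 to 3 and 3 to 4 for crofelemer without and with MDI, 0 to 1 for the difference in MDI effect between B cell deficient and C57BL/6 mice, and 2 to 4 for Balb/c against C57BL/6. Over all probe sets the replicate block moved the calls from 67 to 283 for MDI in Balb/c, from 3225 to 930 in C57BL/6 and from 7232 to 2148 for crofelemer with MDI. The record run as a term was not run for MDI in Balb/c (1 run) or for B cell deficient against C57BL/6 controls (no shared run).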
